A study of Rattus norvegicus with 54 samples.

Results

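The genes described here are the 100 genes whose mean level in untransfected cultures (Ctrl) was lowest at 6 h and higher on both sides, at 2 h and at 24 h. They were chosen on the 18 Ctrl libraries alone. Counts were divided by the library's total and scaled to CPM, and log2(CPM + 0.5) was averaged at each time over both media. Genes on chromosomes 1 to 20 that span less than 500000 bases and average at least 5 CPM at 2 h in Ctrl were eligible. That left 10537 of the 30560 genes in the count table. They were ranked by the smaller of 2 values, the level at 2 h minus that at 6 h and the level at 24 h minus that at 6 h, and the first 100 are called the members below. Of the eligible genes, 2024 had their lowest Ctrl mean at 6 h, so the members are those among them with the deepest dip.

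RNA sequencing covered cultured neurons of the rat cortex, taken at embryonic day 18. Cultures were left untransfected (Ctrl), received the adeno-associated virus AAV-SYN-GFP (GFP), or received AAV-SYN-rMBD3-GFP, made to overexpress Mbd3 (rMBD3). Each was kept in standard medium with Mg or in medium without Mg, which the labels call epileptiform, and was sampled at 2, 6 and 24 h. This gave 18 groups of 3 libraries, 54 in all. The GFP and rMBD3 cultures share the SYN promoter and the GFP label, and the Ctrl cultures carry neither virus. Within a group the 3 libraries are numbered cell cultures, and the numbers 1 to 3 recur in every group, so Ctrl, GFP and rMBD3 libraries of one number are not independent of each other.

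Magnesium blocks NMDA receptor channels at resting membrane potential, and taking it out of the medium is a common way to provoke synchronous bursting in cultured neurons. MBD3 is a subunit of the NuRD complex, which couples nucleosome remodelling to histone deacetylation and restrains transcription at many promoters and enhancers. After a change of medium or a burst of activity, neurons switch on immediate early genes first and later response genes afterwards, and the transcripts of other genes fall and return at their own rates. Those rates depend on transcription and on RNA stability together, and total counts do not separate them. In a bulk culture, fewer cells of a type and less RNA per cell cannot be told apart either.

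The count table lists genes by Ensembl identifier only, and none of its 30560 identifiers matched the 47357 genes of the RefSeq table used here. The members therefore carry no symbols, no gene list or cell type marker was read, and the labelled cell type and the overexpression of Mbd3 were not checked here. Libraries held between 14448927 and 39691105 counts in genes, with a median of 26121007, so that 3 counts, the limit used for a gene not detected, were 0.0756 to 0.208 CPM. Every member had at least 2 counts in every library. Mitochondrial transcripts took 1.38% to 4.90% of the counts. Some libraries stand apart in the members' levels. The 6 h Ctrl library of culture 1 without Mg had the lowest median member level of all, 0.68 below the 54-library mean on the log2 scale, and both 2 h rMBD3 libraries of culture 1 were low as well, at -0.24 and -0.29. The 24 h Ctrl library of culture 3 with Mg, at -0.18, was low for its time and held 4.90% mitochondrial counts. The 24 h rMBD3 library of culture 1 with Mg, at -0.20, was also low for its time and held 3.56%. Without the 6 h Ctrl library of culture 1, an alternative added after seeing the data, the rule would have kept 71 of the 100 members.

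In the Ctrl libraries the members' median difference was -0.62 from 2 h to 6 h and 0.59 from 6 h to 24 h, both on the log2(CPM + 0.5) scale. On the linear scale the medians were 0.653-fold and 1.51-fold. These values chose the members and are given as a description. Over all eligible genes the first median was -0.05 and the second was close to 0. The value used for ranking ran from 1.04 at the top to 0.44 at the bottom, with a median of 0.51. The last member, ENSRNOG00000011216, averaged 52.02, 38.3 and 74.1 CPM at 2, 6 and 24 h, and the first gene left out, ENSRNOG00000011799, averaged 5.52, 3.96 and 5.73 CPM. Their ranking values both round to 0.44. The members were moderately expressed: at 2 h in Ctrl they averaged 5.11 to 251 CPM, with a median of 29.5 against 43.1 for all eligible genes.

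**Figure D1:**
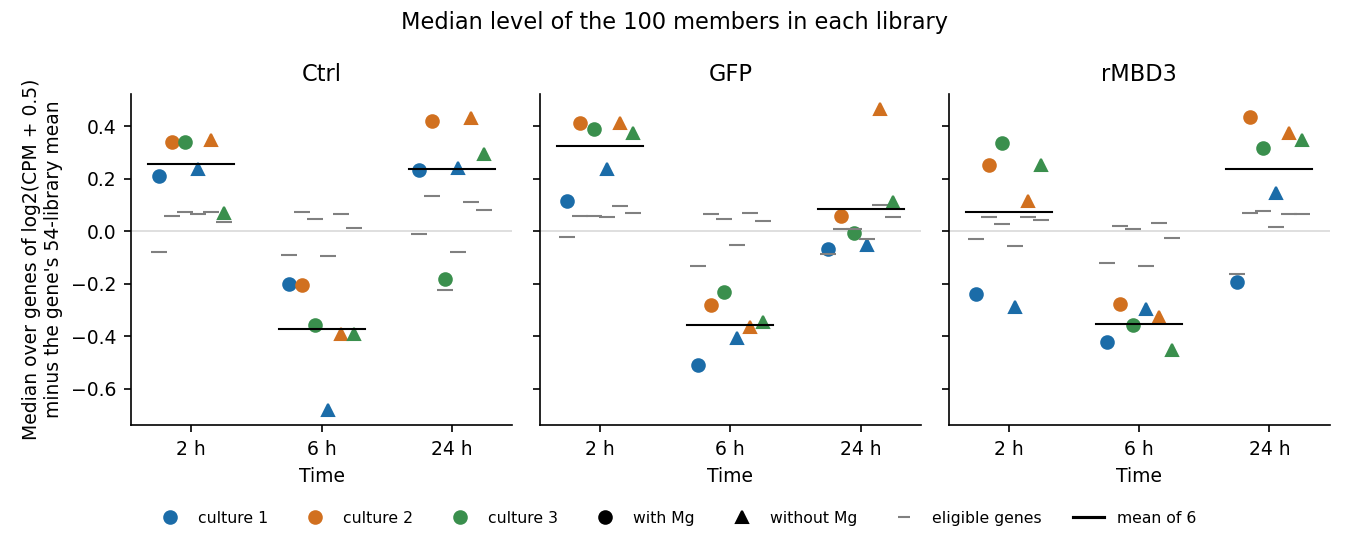
Median over the 100 members of log2(CPM + 0.5) minus each gene's mean over the 54 libraries, 1 point per library, by construct and time; colours mark the culture number, circles the medium with Mg, triangles the medium without Mg, black lines the mean of 6 libraries, and grey dashes the same median over all eligible genes. In GFP the 6 h points, -0.51 to -0.23, lie below all points at 2 h and 24 h; in rMBD3 the 2 culture 1 points at 2 h, -0.24 and -0.29, lie near the 6 h points.

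In the GFP cultures, which the rule did not use, the members were again low at 6 h. The median member level per library, set against each gene's 54-library mean, lay between 0.12 and 0.41 at 2 h (median of 6 libraries 0.38), between -0.51 and -0.23 at 6 h (median -0.36), and between -0.07 and 0.47 at 24 h (median 0.03). The 6 h libraries did not overlap with those of either other time. Over all eligible genes the per-library medians stayed within -0.13 to 0.10 in GFP at every time. The members' summed share of all counts was 0.384% to 0.505% at 2 h, 0.276% to 0.298% at 6 h and 0.377% to 0.526% at 24 h.

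In GFP more members passed the test for the fall from 2 h to 6 h than for the return. With edgeR's quasi-likelihood test and Benjamini-Hochberg adjustment over the 17172 genes tested, 62 of the 100 members were called, all of them lower at 6 h than at 2 h. Over all genes tested 13.6% were called lower, and over the eligible genes 19.6%. The median log2 fold change of the members was -0.65, or 0.637-fold, against -0.03 over all genes, and each member's estimate was below 0, from -1.92 to -0.04. Without culture 2 or without culture 3 the count was 14 in each case, and without culture 1 it was 79. In the medium with Mg alone 21 members were lower, and in the medium without Mg alone 25, with 3 libraries per time in place of 6. The share of all genes called in each of these refits is not given here. Whether the moves are particular to the members therefore cannot be told.

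The recovery from 6 h to 24 h in GFP was smaller. By the same test 34 members were called, all of them higher at 24 h than at 6 h. Over all genes tested 10.6% were called higher, and over the eligible genes 12.9%. The median log2 fold change was 0.41, or 1.33-fold, with members ranging from -0.32 to 1.51. Without culture 2 the count was 10, without culture 3 it was 11, and without culture 1 it was 54. Single media gave 11 members with Mg and 19 without Mg. For these refits, too, the share of all genes called is not given here.

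Counted by means alone, 86 of the 100 members had their lowest GFP mean at 6 h, where 18.1% of the eligible genes did. Another 13 went on falling from 6 h to 24 h, and 1, ENSRNOG00000069794, had its highest mean log2 level at 6 h. The 6 h library was below the 2 h library of the same culture and medium in all 6 such pairs for 79 members, against 33.2% of the eligible genes. For the return, the 6 h library was below its 24 h partner in all 6 pairs for 35 members, against 19.4%.

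In the rMBD3 cultures the members also dipped, with a less uniform start. The per-library medians were -0.29 to 0.33 at 2 h (median of 6 libraries 0.18), -0.45 to -0.28 at 6 h (median -0.34) and -0.20 to 0.43 at 24 h (median 0.33). All 6 libraries at 24 h lay above all those at 6 h, and 5 of the 6 at 2 h did so. The 2 h spread followed the culture number. The members' median difference between 6 h and 2 h was -0.09 in culture 1, -0.45 in culture 2 and -0.69 in culture 3, where in GFP the 3 cultures gave -0.51, -0.73 and -0.64.

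By edgeR's test 43 members were lower at 6 h than at 2 h in rMBD3, against 14% of all genes tested and 20.5% of the eligible genes. A single member, ENSRNOG00000011439, was higher, against 9.48% and 11.2%. From 6 h to 24 h, 60 members were called, all of them higher, against 14.8% of all genes and 19.6% of the eligible genes. The median log2 fold changes were -0.47 (0.722-fold) for the first step and 0.66 (1.58-fold) for the second. Without culture 2 the 2 counts were 8 and 20, without culture 3 they were 4 and 12, and without culture 1 they were 64 and 73. Leaving out only the 2 h libraries of culture 1 gave 46 and 59. Single media gave 17 and 25 with Mg, and 9 and 36 without Mg. The share of all genes called is not given here for these refits.

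In rMBD3 the mean was lowest at 6 h for 81 members, against 21.3% of the eligible genes. All 6 pairs of the same culture and medium had the lower value at 6 h than at 2 h for 41 members, against 29.7%. For the return to 24 h all 6 pairs pointed one way for 44 members, against 20.2%. The GFP and rMBD3 calls were made on different libraries of the same 3 culture numbers. Of the 62 members lower at 6 h in GFP, 38 (61.3%) were also called lower in rMBD3, and those are 88.4% of the 43 called there. Of the 34 higher at 24 h in GFP, 33 (97.1%) were called higher in rMBD3, or 55% of its 60. Neither construct gave a call for the fall in 33 members and for the return in 39. Over all genes tested, 77.3% of those called lower at 6 h in GFP were also called lower in rMBD3, and those are 75.3% of the calls there. For the return the shares were 77.2% and 55.2%. Neither construct gave a call for the fall in 82.9% of all genes and for the return in 82.7%.

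**Figure D2:**
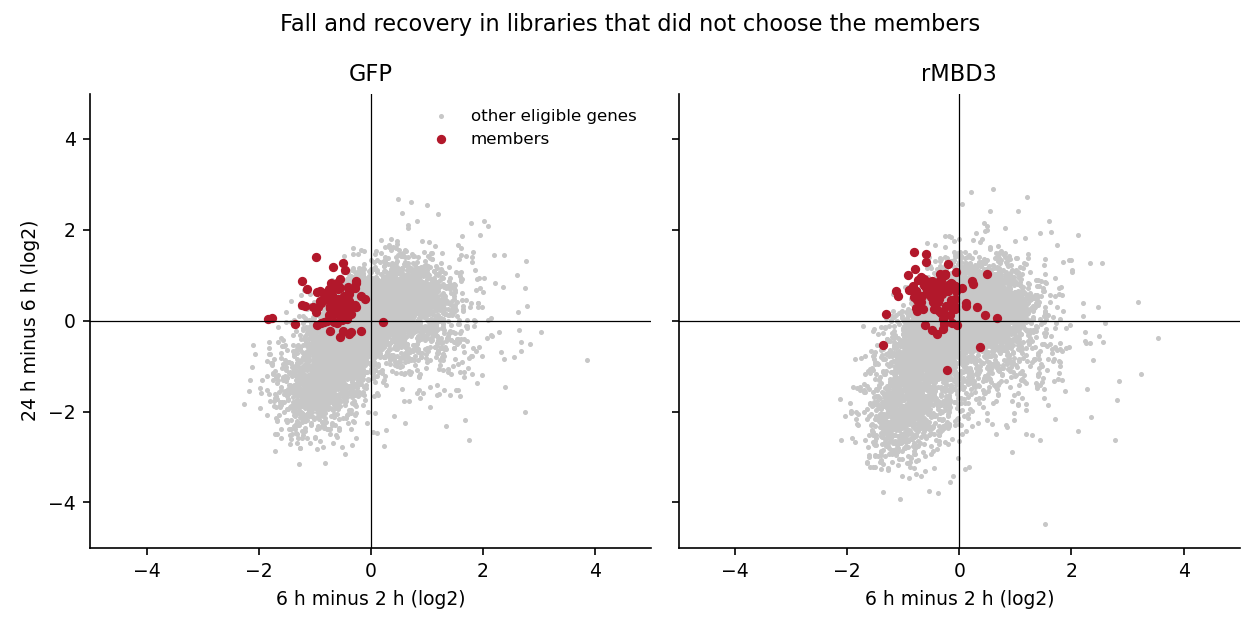
Mean log2(CPM + 0.5) at 6 h minus 2 h (horizontal) and at 24 h minus 6 h (vertical) for the 10537 eligible genes, in GFP (left) and rMBD3 (right); red points are the 100 members and grey points the other eligible genes. The upper left part, where 6 h is lowest, holds 86 members in GFP and 81 in rMBD3.

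**Figure D3:**
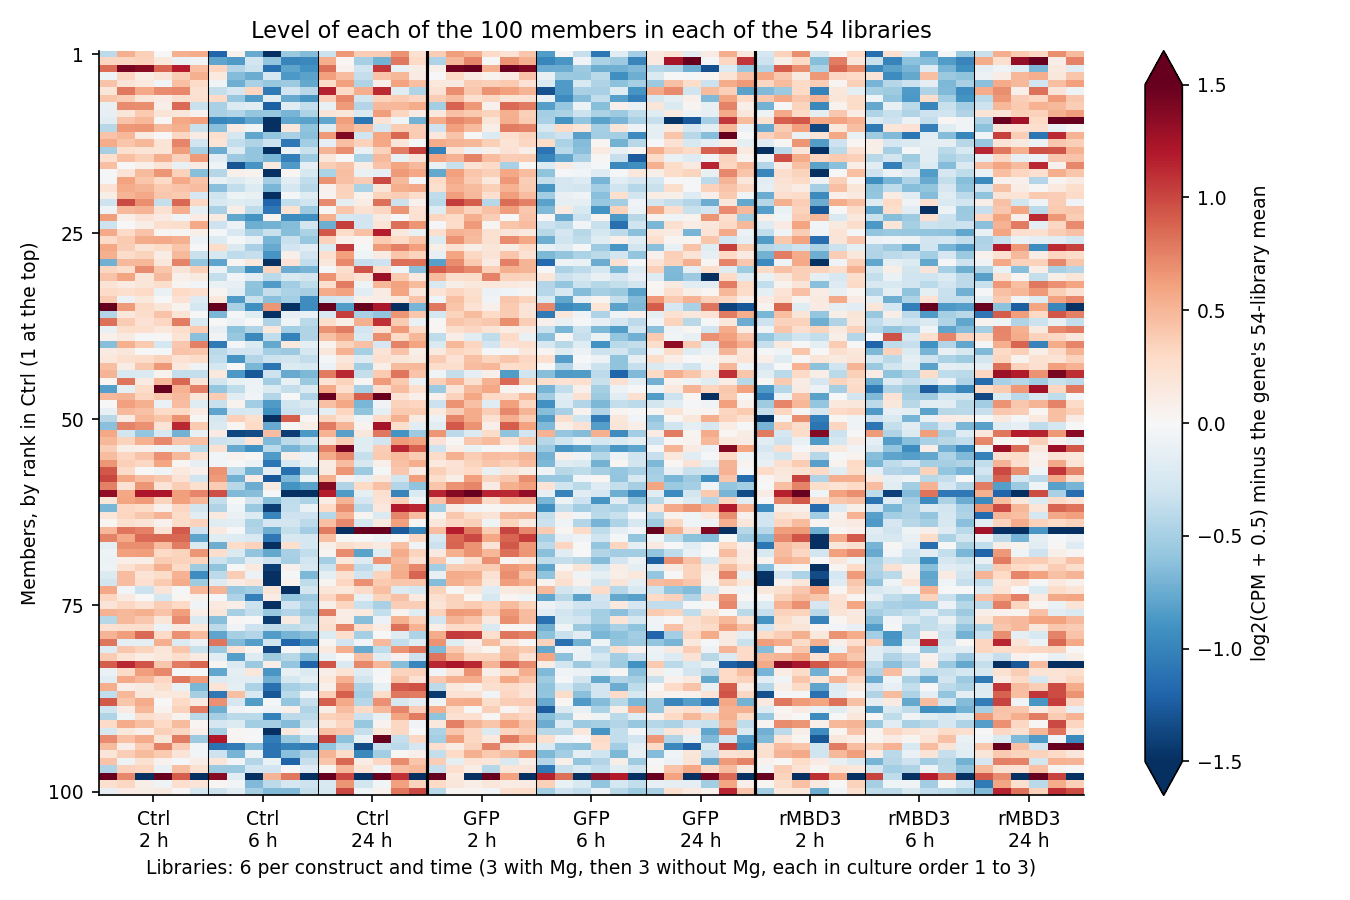
Level of each member in each library as log2(CPM + 0.5) minus the gene's 54-library mean, with members in rows by rank and libraries in columns by construct, time, medium and culture; colours stop at 1.5 in either direction. The 6 h blocks are blue down most rows in all 3 constructs, the 6 h Ctrl library of culture 1 without Mg is the darkest column, and the row at rank 98 alternates by culture number.

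The sign of the shift was shared by many members, but few separated completely at the level of single libraries. All 6 libraries at 6 h lay below all 12 at the other times for 5 members in GFP, against 0.142% of the eligible genes, and for 6 in rMBD3, against 0.171%. In Ctrl, which chose the members, 5 did so. The only member that did so in all 3 constructs was ENSRNOG00000063717 (rank 9), singled out here after its values were seen. It lies on chromosome 14 from 41557972 to 41877495 of mRatBN7.2, plus strand, with 19 exon blocks and 6318 exonic bases.

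ENSRNOG00000063717 measured 64.5 to 83.6 CPM at 2 h (median 75.03), 39.6 to 46.3 at 6 h (median 41.5) and 50.8 to 86.0 at 24 h (median 58.9) in GFP. In rMBD3 it measured 52.3 to 86.2 CPM (median 66.8), 42.2 to 46.8 (median 43.96) and 66.5 to 89.7 (median 74.1). In both constructs the 6 h libraries formed a narrow band below all others. The edgeR log2 fold changes from 2 h to 6 h were -0.85 ± 0.11 (SE, adjusted p = 3.5e-07) in GFP and -0.63 ± 0.11 (adjusted p = 3.3e-05) in rMBD3. From 6 h to 24 h they were 0.54 ± 0.11 (adjusted p = 0.00025) and 0.77 ± 0.11 (adjusted p = 1.1e-06). The call for the return in GFP was lost without culture 2 and in the medium with Mg alone. The Ctrl libraries ran from 52.998 to 76.2 CPM at 2 h, 35.3 to 42.5 at 6 h and 49.7 to 89.3 at 24 h.

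The 4 members ranked highest in Ctrl were named by a rule of rank. The first, ENSRNOG00000001410, lies on chromosome 12 from 19166088 to 19175023 (mRatBN7.2, minus strand, 26 exon blocks, 3939 exonic bases). It measured 53.9 to 71.4 CPM at 2 h in GFP (median 60.8), 21.6 to 45.8 at 6 h (median 34.4) and 41.2 to 67.9 at 24 h (median 51.7). Each 2 h library was above all 6 h libraries, and the lowest 24 h library was below the highest 6 h library. The fall in GFP was -0.91 ± 0.22 on the log2 scale (adjusted p = 0.0018) and the return 0.64 ± 0.21 (adjusted p = 0.024), by edgeR. Both calls in GFP were lost without culture 3 and in either medium alone, and that for the return also without culture 2. In rMBD3 its 2 h values were 38.4 to 75.3 CPM (median 51.9), its 6 h values 20.9 to 54.998 (median 35.98) and its 24 h values 36.6 to 75.2 (median 62.7), and the times overlapped. There the fall, -0.55 ± 0.21, missed the threshold (adjusted p = 0.057, or 0.0021 with the replicate block) but passed without culture 1 and without the 2 h rMBD3 libraries of culture 1. The return there, 0.72 ± 0.21, passed it (adjusted p = 0.0089) but was lost without culture 3 and in the medium with Mg alone.

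The second, ENSRNOG00000040287, lies on chromosome 6 from 15342344 to 15350917 (plus strand, 3 exon blocks, 5347 exonic bases). In GFP it measured 8.06 to 19.1 CPM at 2 h (median 16.3), 5.42 to 10.8 at 6 h (median 6.72) and 10.99 to 38.3 at 24 h (median 19.1). In rMBD3 the ranges were 7.04 to 19.5 (median 12.4), 5.39 to 8.80 (median 6.53) and 12.1 to 36.4 (median 18.02). The 24 h libraries were above all those at 6 h in both constructs, while the 2 h and 6 h libraries overlapped. By edgeR the fall was -1.07 ± 0.28 in GFP (adjusted p = 0.0049) and -0.91 ± 0.28 in rMBD3 (adjusted p = 0.016). The return was 1.51 ± 0.29 in GFP (adjusted p = 0.00013) and 1.65 ± 0.29 in rMBD3 (adjusted p = 3.1e-05). In both constructs the call for the fall was lost without culture 2, without culture 3 and in either medium alone, and that for the return in GFP was lost without culture 3.

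The third, ENSRNOG00000013388, fell without returning in GFP. It lies on chromosome 9 from 55975667 to 56044464 (minus strand, 27 exon blocks, 3360 exonic bases). Its GFP values were 21.3 to 56.998 CPM at 2 h (median 54.6), 11.8 to 13.6 at 6 h (median 11.9) and 7.69 to 17.3 at 24 h (median 13.9). Every 2 h library was above every later one, and the 6 h and 24 h libraries overlapped. The fall was -1.92 ± 0.26 (adjusted p = 9.5e-07), the largest of any member in GFP, and the 6 h to 24 h change of 0.10 ± 0.25 missed the threshold (adjusted p = 0.81, edgeR). In rMBD3 it measured 14.3 to 38.04 CPM (median 32.8), 9.95 to 17.4 (median 11.7) and 12.3 to 22.1 (median 17.9). There the fall was -1.23 ± 0.25 (adjusted p = 0.00041) and the later change 0.54 ± 0.25 (adjusted p = 0.095). The call for the fall in rMBD3 was lost without culture 2, without culture 3 and in the medium without Mg alone, and the later change passed without culture 1. In Ctrl its 24 h mean, 25.8 ± 10.5 CPM (SD, n = 6), was below the 2 h mean of 42.2 ± 10.4.

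The fourth, ENSRNOG00000070206, has 2 exon blocks and lies on chromosome 19 from 54560128 to 54566642 (minus strand, 5945 exonic bases). In GFP it measured 83.9 to 114 CPM at 2 h (median 91.7), 44.1 to 78.0 at 6 h (median 56.9) and 72.2 to 115 at 24 h (median 85.2). In rMBD3 the ranges were 92.3 to 132 (median 108), 43.4 to 115 (median 56.1) and 78.9 to 123 (median 103). The 6 h libraries lay below all 2 h libraries in GFP, whereas in rMBD3 both culture 1 libraries at 6 h reached into the range of the other times. The edgeR fall was -0.73 ± 0.20 in GFP and -0.71 ± 0.20 in rMBD3 (adjusted p = 0.0056 and 0.0072). The return was 0.60 ± 0.20 and 0.55 ± 0.20 (adjusted p = 0.022 and 0.029). In GFP both calls were lost without culture 2, without culture 3 and in the medium with Mg alone, and were past the threshold in 7 of 10 alternatives each. In rMBD3 the fall passed in 5 and the return in 3 of 11 alternatives. Both rMBD3 calls were lost without culture 2, without culture 3, in either medium alone, with only the compared groups fitted and without the 2 h libraries of culture 1. The rMBD3 return was also lost in DESeq2 and with RLE factors, and over all its alternatives it ran from 0.24 to 1.02 with a highest adjusted p of 0.64.

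**Figure D4:**
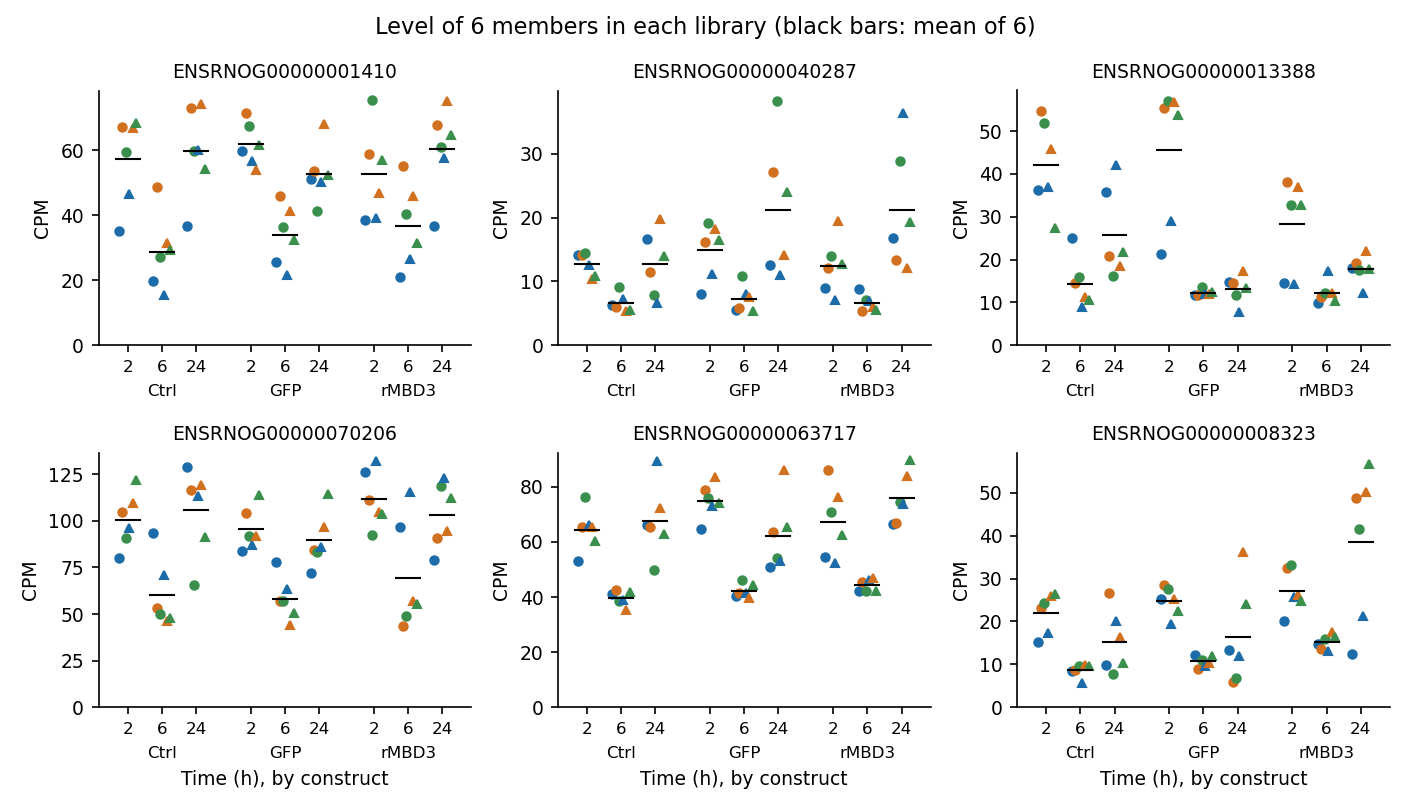
CPM of 6 members in each of the 54 libraries, by construct and time, with colours for culture number 1 (blue), 2 (orange) and 3 (green), circles for the medium with Mg, triangles for the medium without Mg, and black bars for the mean of 6. ENSRNOG00000063717 has its 6 h libraries between 35.3 and 46.8 CPM, below all others in each construct, and ENSRNOG00000013388 stays between 7.69 and 17.3 CPM at 6 h and 24 h in GFP.

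Where the members ended at 24 h relative to 2 h was not fixed by the rule in GFP and rMBD3. The direct test of this difference between the constructs, given further on, called 0 members, with a smallest adjusted p of 0.44. In GFP 27 members had a 24 h mean above their 2 h mean, against 48.9% of the eligible genes, and the median log2 fold change was -0.28. By edgeR 28 members were lower at 24 h than at 2 h, against 28.1% of all genes tested, and 2 were higher, against 24.6%. Over the eligible genes 34.6% were called lower and 28.1% higher. The members' lower share was near that of all genes tested and under that of the eligible genes. Their higher share was under both. The 2 higher members, named after their values were seen because they are so few, were ENSRNOG00000018413 (chromosome 5) and ENSRNOG00000058094 (chromosome 17). ENSRNOG00000018413 went from 14.2 to 27.1 CPM at 2 h (median 22.2) to 30.03 to 55.9 at 24 h (median 34.6), with no overlap between those times and a log2 fold change of 0.74 ± 0.24 (adjusted p = 0.0090). ENSRNOG00000058094 went from 30.4 to 47.2 CPM (median 44.4) to 50.2 to 100.04 (median 63.6), also with no overlap, and changed by 0.65 ± 0.21 (adjusted p = 0.0083). Both calls were lost without culture 2, without culture 3 and in the medium with Mg alone. Without culture 3 the count of higher members in GFP was 0, without culture 2 it was 1 and without culture 1 it was 9; the lower count was 9 without culture 3 and 13 without culture 2. DESeq2 (25.4% of all genes higher), the replicate block (27.4%) and a fit of only the compared groups each called 5 higher. For the last of these and for the refits without a culture, the share of all genes called is not given here.

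In rMBD3 66 members had the higher mean at 24 h, against 52.4% of the eligible genes, and the median log2 fold change was 0.15, or 1.11-fold. By edgeR 19 were higher than at 2 h, against 25.9% of all genes tested and 30.9% of the eligible genes. Another 6 were lower, against 27.6% and 32.9%. Both of the members' shares are under the background. With the 2 rMBD3 libraries of culture 1 at 2 h left out, 10 members were higher and 12 were lower. Without culture 2 the counts were 11 and 3, without culture 3 they were 13 and 3, and without culture 1 they were 24 and 14. For these refits the share of all genes called is not given here, so whether the moves are particular to the members cannot be told.

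Comparing rMBD3 with GFP directly at each time, few members passed the threshold. At 2 h the median log2 fold change of the members was -0.25, against -0.04 over all genes tested, and 78 of the 100 estimates were below 0, as were 55.6% of all genes. By edgeR 0 members were called, against 0.874% of all genes, with 21 at an unadjusted p under 0.05, where 11.6% of all genes were, and a smallest adjusted p of 0.086. DESeq2 called 2 members lower in rMBD3, against 0.495% of all genes, and the replicate block 6, against 0.652%. Without the 2 rMBD3 libraries of culture 1 the median was -0.05 and 2 members were under an unadjusted p of 0.05. The share of all genes under 0.05 in that refit is not given here. At 6 h the members' median was 0.02 and 52 of the estimates were above 0, against 45.3% of all genes. There edgeR called 0 members, against 0.221%, with 8 under an unadjusted 0.05, against 9.50%. DESeq2 and the replicate block each called 1 higher in rMBD3, against 1.04% and 1.01%.

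At 24 h 79 of the 100 estimates were above 0, against 52.5% of all genes, with a median of 0.18 against 0.02 over all genes, and edgeR called 2 members higher in rMBD3, against 0.396% of all genes. The replicate block called 5, all higher, where it called 2.64% of all genes higher. Both are named after their values were seen. ENSRNOG00000008323 lies on chromosome 10 from 56676261 to 56766584 (minus strand, 20 exon blocks). In GFP at 24 h it measured 5.84 to 36.2 CPM (median 12.6) and in rMBD3 12.4 to 56.8 (median 45.1). The 4 rMBD3 libraries of cultures 2 and 3 were above all GFP libraries, and the 2 of culture 1 fell within the GFP range. The log2 fold change was 1.42 ± 0.27 (adjusted p = 0.0071). ENSRNOG00000018282, on chromosome 1 from 218906815 to 218982416 (minus strand, 14 exon blocks), measured 8.31 to 41.5 CPM in GFP (median 13.5) and 16.5 to 84.6 in rMBD3 (median 43.6), and the ranges overlapped. Its log2 fold change was 1.45 ± 0.31 (adjusted p = 0.017, edgeR). Both calls were lost without culture 2, without culture 3, in the medium without Mg alone and when only the compared groups were fitted, and that of ENSRNOG00000018282 also in the medium with Mg alone. Without culture 1 the test called 11 members higher and 2 lower, and that fit called 3.70% of all genes higher and 6.69% lower.

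At 6 h ENSRNOG00000008323 measured 8.93 to 12.1 CPM in GFP and 13.2 to 17.5 in rMBD3, with no overlap, and ENSRNOG00000018282 measured 12.9 to 24.01 and 17.05 to 29.1, with overlap. By edgeR their rMBD3 against GFP differences at 6 h were 0.52 ± 0.27 and 0.52 ± 0.30. Both missed the threshold (adjusted p = 0.55 and 0.63). The member that was higher at 6 h than at 2 h in rMBD3, ENSRNOG00000011439 on chromosome 1 from 260028242 to 260218701 (plus strand, 17 exon blocks), ran from 6.49 to 10.6 CPM at 2 h (median 7.48) to 8.30 to 19.6 at 6 h (median 12.3), with overlap. In GFP it ran from 7.47 to 12.2 at 2 h (median 9.02) to 5.84 to 10.02 at 6 h (median 7.08). The rMBD3 change was 0.71 ± 0.20 (adjusted p = 0.0069), and it was past the threshold in both DESeq2 and the replicate block (adjusted p = 0.00096 and 0.0030). The call was lost without culture 2, without culture 3 and in either medium alone. Its GFP change from 2 h to 6 h, -0.32 ± 0.20, missed the threshold by edgeR (adjusted p = 0.25). So did its rMBD3 against GFP difference at 6 h, 0.80 ± 0.20 (adjusted p = 0.061).

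Whether the time course itself differed between rMBD3 and GFP was tested by differences of differences, which use no Ctrl library. For the depth of the dip, 6 h minus the mean of 2 h and 24 h, 0 members and 0 of all genes (0%) passed in edgeR, with 2 members under an unadjusted p of 0.05, against 1.76% of all genes; DESeq2 called 0 members. A further 3 contrasts were added after the medians had been seen. The median rMBD3 minus GFP difference of the members was 0.23 for the fall, with 77 of the 100 estimates above 0 against 47.5% of all genes. For the return it was 0.15, with 82 of the 100 above 0 against 52.1%. For 24 h minus 2 h it was 0.41, with 91 of the 100 above 0, against a median of 0.00 and 50.4% above 0 over all genes. None of these reached the threshold for any member: edgeR and DESeq2 called 0 members in each, and the members under an unadjusted 0.05 numbered 4, 6 and 26, against 1.81%, 4.18% and 8.18% of all genes. Of all genes edgeR called 0%, 0% and 0.0175%. Without the 2 rMBD3 libraries of culture 1 at 2 h the medians were 0.11, 0.14 and 0.26, and 11 members were under 0.05 in the last contrast. The share of all genes under 0.05 in that refit is not given here. Without culture 1 altogether, 2 members were higher in the last contrast, in a fit that called 0.0882% of all genes higher.

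No member passed the test between media. These contrasts average the 3 constructs and so include the Ctrl libraries, which chose the members. The median log2 difference between medium without and with Mg was -0.05 at 2 h, -0.09 at 6 h and 0.12 at 24 h. At 6 h 83 of the 100 estimates were below 0, against 55.2% of all genes, and at 24 h 80 were above 0, against 49.7%. Averaged over GFP and rMBD3 only, an alternative chosen after seeing the data, the medians were -0.03, -0.02 and 0.13, with 57 estimates below 0 at 6 h and 82 above 0 at 24 h, and edgeR again called 0 members. By edgeR 0 members passed at any of the 3 times, and 0% of all genes did; 2, 0 and 8 members were under an unadjusted p of 0.05, against 0.769%, 2.07% and 11.6% of all genes, and DESeq2 also called 0 members. The smallest adjusted p of a member was 0.28, at 24 h. Without culture 1, 2 members passed at 24 h, 1 in each direction, in a fit that called 0.0412% of all genes higher and 0.994% lower. For the depth of the dip the median difference without minus with Mg was -0.11, with 82 of the 100 estimates below 0 against 49.6% of all genes, 1 under an unadjusted p of 0.05 (1.26% of all genes) and 0 past the threshold in edgeR or DESeq2. Over GFP and rMBD3 only it was -0.07, with 68 below 0.

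Within each medium the shape was visible in every construct. In GFP the members' median fall was -0.59 with Mg and -0.66 without, and the median return 0.27 and 0.51. In rMBD3 the falls were -0.47 and -0.38 and the returns 0.52 and 0.69. In Ctrl they were -0.54 and -0.75, and 0.43 and 0.83, as a description. Choosing members in only 1 medium of the Ctrl libraries would have kept 45 of the 100 with Mg and 59 without.

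A few members differed in level between culture numbers, at a share near that of the eligible genes. The difference between the 3 culture numbers in median log2(CPM + 0.5) over 18 libraries each exceeded 1 for 5 members, against 4.16% of the eligible genes, and its median was 0.39 in the members and 0.34 in all eligible genes. ENSRNOG00000069794 (rank 98), named after its values were seen, measured 4.05 to 14.5 CPM in the 18 libraries of culture 1 (median 8.69) and 1.94 to 6.79 in those of culture 2 (median 4.86). In culture 3 it measured 0.0972 to 0.595 CPM (median 0.230). The culture 3 libraries did not overlap with any other library, across all constructs, media and times. Its lowest and highest culture 1 values are both Ctrl libraries without Mg, 14.5 CPM at 2 h and 4.05 CPM at 6 h, and were used to choose it. ENSRNOG00000030151 (rank 35) had a median of 6.87 CPM in culture 1 against 2.48 and 2.21 in the others, with overlapping ranges.

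The members were long genes. Their exonic length had a median of 5377 bases against 3252 bases for all eligible genes. Their span had a median of 57356 bases against 25900, and they held 16 exon blocks against 10. Of the members 39 had 20 or more exon blocks, against 18.8% of the eligible genes, 31 spanned over 100000 bases, against 14.5%, and 15 had more than 10000 exonic bases, against 3.00%. When the eligible genes were divided into 4 classes of nearly equal size by exonic length, the members numbered 7, 14, 26 and 53 from shortest to longest. Per length they were expressed at a lower level than most, with a median of 5.41 CPM per 1000 exonic bases at 2 h in Ctrl against 13.2.

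Over all eligible genes, too, the change from 2 h to 6 h differed by length class in GFP, but little in rMBD3. In GFP the median 6 h minus 2 h difference was 0.04 over all eligible genes of the shortest class and -0.17 over those of the longest, and the share with the lowest mean at 6 h rose from 11.2% to 24.5%. In rMBD3 the medians were -0.04 in both, with shares of 19.1% and 22.8%. The members stood below their length class in each class. Their medians in GFP were -0.69, -0.59, -0.67 and -0.59 from shortest to longest, and in rMBD3 -0.51, -0.49, -0.47 and -0.30. Several of the libraries that stood apart also carried a length shift. Eligible genes of the longest class had a median of -0.29 in the 6 h Ctrl library of culture 1 without Mg. This median was -0.18 and -0.25 in the 2 rMBD3 libraries of culture 1 at 2 h. It was -0.34 in the 24 h Ctrl library of culture 3 with Mg. In the 24 h rMBD3 library of culture 1 with Mg the longest (-0.15) and shortest class (-0.16) were both low. Among the GFP libraries at 6 h the longest class ran from -0.32, in culture 1 with Mg, to 0.09, with a median of -0.001. The mitochondrial share in GFP was 1.62% to 2.04% at 2 h, 1.89% to 4.10% at 6 h and 1.89% to 3.88% at 24 h; in rMBD3 it was 1.41% to 2.65%, 2.30% to 4.08% and 1.85% to 3.56%. The part of gene length or of mitochondrial RNA in the members' dip was not tested.

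**Figure D5:**
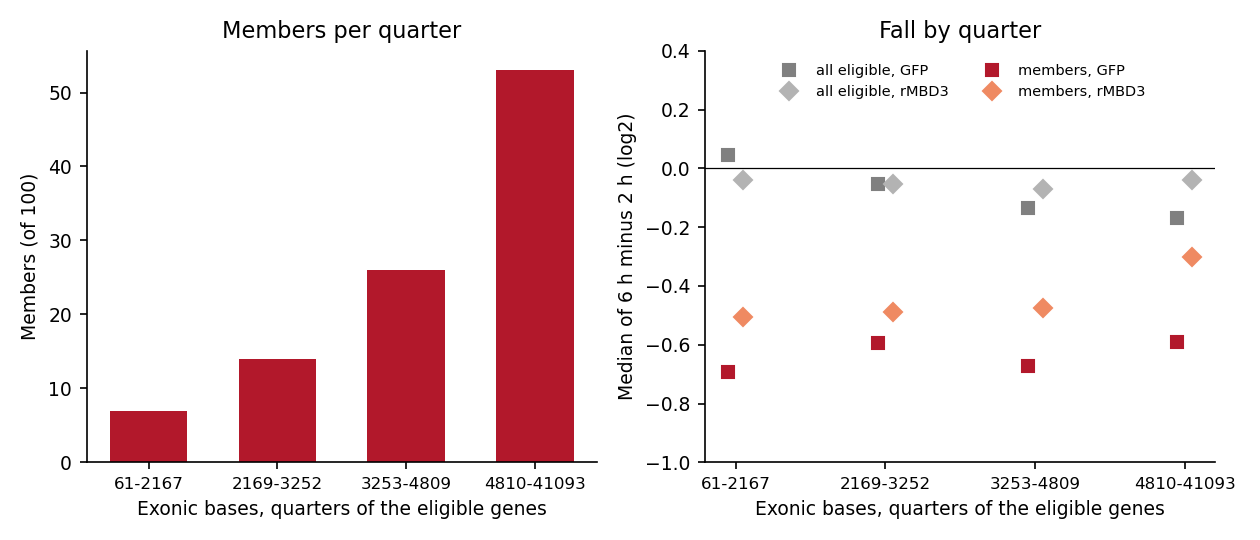
Left, number of the 100 members in each of 4 length classes of the eligible genes; right, median 6 h minus 2 h difference of log2(CPM + 0.5) in GFP (squares) and rMBD3 (diamonds), for members (red and orange) and for all eligible genes of the class (grey). Members rise from 7 in the shortest class to 53 in the longest, and their medians in GFP lie between -0.69 and -0.59 in every class.

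The members were spread over 19 of the 20 autosomes, with 13 on chromosome 1, 12 on chromosome 5 and 9 on chromosome 8, and none on chromosome 11. Only 1 pair lay within 100000 bases of each other. ENSRNOG00000008113 (141564399 to 141593176) and ENSRNOG00000007099 (141494353 to 141535525) lie on the minus strand of chromosome 5, 28873 bases apart, and their GFP means fell by 0.55 and by 0.69 on the log2 scale from 2 h to 6 h. Of the members 52 lie on the plus strand. Overlap with another annotated gene was found for 27, against 29.4% of the eligible genes, and on the same strand for 10, against 8.90%; counting used the strand.

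The pattern did not stop at the last member. In 4 bands of 25 members from the first rank to the last, the lowest mean at 6 h in GFP was found for 24, 22, 20 and 20. It was found for 87 of the next 100 genes in rank, 78% of the 300 after them, 73% of the following 500 and 54.7% of the remaining 1024 that were lowest at 6 h in Ctrl. In rMBD3 the counts were 24, 18, 19 and 20 in the 4 bands and 80 in the next 100 genes, and the later shares 68.7%, 59.2% and 51.9%. The median fall in GFP was -0.74, -0.57, -0.60 and -0.55 in the 4 bands, -0.45 in the next 100 genes and -0.15 in the 1024. In rMBD3 it was -0.55, -0.33, -0.45 and -0.42 in the 4 bands, -0.29 in the next 100 and -0.12 in the 1024.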

How the data were processed

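Per the labels' protocols, a strand-specific kit for poly(A) RNA was used, STAR aligned the reads and featureCounts counted them. The protocol names rn6, but per the file headers the deposited counts are whole-number read pairs from featureCounts 2.0.0 on mRatBN7.2 with Ensembl 105, counted on strand setting 2 with a mapping quality of at least 3. The submitters' processing notes also list Trim Galore, Salmon, SAMtools and DESeq2. The deposited log2 table was not used.

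Levels are log2(CPM + 0.5) over total counts. Tests used edgeR 4.0.16 in R 4.3.3 on the counts of all 54 libraries, with filterByExpr, TMM scaling, 1 coefficient for each of the 18 groups, glmQLFit (robust), glmQLFTest and a Benjamini-Hochberg adjusted p of 0.05 over 17172 genes; all 100 members were tested. Time contrasts average both media with equal weight, medium contrasts average the 3 constructs, and SE is that of the log2 fold change. Alternatives were DESeq2 1.42.0, RLE factors, no filter, the replicate block, each culture left out, single media and fits of the compared groups only. The test was run on simulated data first.

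The labels give the replicate number as the cell culture, so same-numbered libraries are paired by label. Their deviations from the group means correlated across genes at a mean r of 0.30 (459 pairs, from -0.39 to 0.79). The mean r was 0.44 for the 135 of these pairs at the same time and 0.24 for those at different times. For libraries of different numbers in different groups it was -0.14. Deviations from a group mean cancel within the group, so this value largely follows from that of same-numbered libraries and adds no separate evidence. The GFP and rMBD3 libraries are therefore not fully independent of the Ctrl libraries that chose the members. The blocked value is printed where it changes a call. The main fit had no term for culture, so its p-values measure the spread between libraries within groups, pooled over the 18 groups. They do not use the pairing, and the 2 media of a culture count as separate libraries. How the cultures relate to animals is not given in the sources used here. No 2 libraries of a group were copies: counts differed by a chi-square of at least 9.76 per gene.

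The members and the lists were chosen with earlier results of these data known. The naming rule took the highest ranks and allowed 4 genes without a symbol, so the first 4 were named; the other named genes fall outside it and were picked once their values were known. The limit used for a gene not detected covers counting error only. The ± values, SE or SD, include the spread between libraries. Without symbols, the planned gene lists, cell type markers and sequences were not used here.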

Additional observations from a re-analysis of the deposited data

How the results depend on the processing

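Of 214 recomputed counts, 157 stayed within 1.5 times the value reported and 57 moved further. For most counts of calls the share of all genes called in the same refit is not given. Whether such moves are particular to the members therefore cannot be told. With culture 1, 2 or 3 left out in turn, members lower at 6 h than at 2 h ranged from 14 to 79 in GFP and from 4 to 64 in rMBD3, and those higher at 24 h than at 6 h from 10 to 54 and from 12 to 73. For 24 h against 2 h the ranges were 9 to 30 lower and 0 to 9 higher in GFP, and 11 to 24 higher and 3 to 14 lower in rMBD3. Between rMBD3 and GFP they were 0 to 1 at 2 h, 0 at 6 h and 0 to 13 at 24 h, for the medium 0 to 2 at 24 h and 0 at 2 h and 6 h, and for the 24 h minus 2 h difference between constructs 0 to 2; the other differences of differences stayed at 0. The rule kept 54 to 68 members, and means lowest at 6 h numbered 81 to 89 in GFP and 65 to 87 in rMBD3.

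With 3 libraries per time, the medium with Mg alone gave 21 and 11 members for the GFP fall and return, 17 and 25 for rMBD3, 0 higher at 24 h than at 2 h in GFP, 8 in rMBD3 and 1 between constructs at 24 h. The medium without Mg alone gave 25 and 19, 9 and 36, 10 lower at 24 h than at 2 h in GFP, 11 higher and 2 lower in rMBD3, and 0 between constructs at 24 h. All 54 libraries entered each of these fits, and only the contrasts were limited to 1 medium. Choosing members with Mg alone kept 45 and without Mg alone 59; the pseudocounts kept 94 each and TMM-scaled CPM 90.

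The replicate block gave 75 and 42 members for the GFP fall and return and 49 and 66 for rMBD3. It moved 24 h against 2 h in GFP to 5 higher, and rMBD3 against GFP to 6 at 2 h, 1 at 6 h and 5 at 24 h, and brought no other count past 1.5 times; among named members it changed only the call for the fall of ENSRNOG00000001410 in rMBD3. DESeq2 gave 5 higher at 24 h than at 2 h in GFP, and 2 at 2 h and 1 at 6 h between constructs. RLE factors gave 4 and, between constructs at 6 h, 1. Fits of only the compared groups gave 5 higher at 24 h than at 2 h in GFP, 2 between constructs at 2 h and 0 at 24 h. Without the 2 h rMBD3 libraries of culture 1, chosen after seeing the data, 24 h against 2 h in rMBD3 had 10 higher and 12 lower. Medium contrasts over GFP and rMBD3 only, also chosen after seeing the data, kept 0 members called at every time. The cause of these moves was not tested. Among the named members, 196 of 263 refits kept the direction and side of the threshold, 62 lost the call, 4 gained it, and 1 turned direction: the 6 h to 24 h change of ENSRNOG00000013388 in GFP was -0.083 without culture 2, the lowest of a range of -0.083 to 0.22 as each culture was left out.

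The typical biological coefficient of variation between libraries was 39.7%, and 31.7% with the replicate block. Near-identical copies of the members were not checked here.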
